A study of Homo sapiens with 36 samples.

Results

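Chromatin sites at which the tagged mutant protein HA-GATA2(T354M) was itself detected were examined in HUDEP-2, a human line of immortalized red cell precursors. The peaks of all 28 libraries on chromosomes 1 to 22 and X were merged into 17277 sites where they overlapped by at least 1 bp. The T354M-held sites were chosen by their anti-HA peaks. They are the 397 sites with a peak for the HA tag in at least 3 of 4 T354M libraries and in 0 of 4 empty-vector libraries. These make up 36.8% of the 1079 sites with an anti-HA peak in any of those 8 libraries, a share that the choice itself fixes and that is not a result.

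GATA2 belongs to the zinc finger transcription factors, acts in blood stem cells and early progenitors, and binds DNA at the GATA motif. T354M replaces a threonine of its C-terminal zinc finger, the finger that contacts that motif, by methionine, and is an inherited mutation that predisposes to myeloid malignancy. CUT&Tag cuts DNA with a transposase that an antibody has brought to its target, so that fragments pile up as peaks where the target sits. The HA tag marks the vector-encoded protein alone, whereas anti-GATA2 can read both the vector-encoded and the cells' own GATA2.

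The vectors were lentiviral, and infected cells were sorted for GFP before the assay. GATA2-low cells carry the genotype GATA2+/- and received HA-GATA2(T354M), HA-GATA2 or an empty vector, and wild-type cells received the empty vector. Anti-HA was used on the 3 kinds of GATA2-low cells and anti-GATA2 on all 4 kinds, with 4 libraries in each of these 7 groups. All cells grew with erythropoietin, stem cell factor, doxycycline and dexamethasone. One empty-vector anti-GATA2 library (replicate 1) is titled GATA2 low but has a wild-type genotype label, and the title was followed. Nothing in the labels says whether replicates were separate cultures, so the spread between them may be technical. A vector-encoded protein is expressed from a vector, and its level relative to the cells' own GATA2 was not measured here.

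The lists differed in length. The T354M anti-HA lists held 426, 480, 744 and 730 peaks, the HA-GATA2 anti-HA lists 4073, 4942, 6065 and 1912, and the empty-vector anti-HA lists 6, 5, 1 and 4. The anti-GATA2 lists held 2779 to 6311 peaks for T354M, 7064 to 12171 for HA-GATA2, 1823 to 3648 for the GATA2-low empty vector and 6555 to 9121 for wild type. Read totals were not analysed here. The lowest local background of a list, in fragments, stands in for depth, and was 0.356 to 0.411 in T354M and 0.375 to 0.438 in HA-GATA2 anti-HA libraries, and 0.153 to 0.213 in the empty-vector and 0.222 to 0.302 in the wild-type anti-GATA2 libraries.

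At 15 of the 362 T354M-held sites on the chromosomes of the RefSeq promoter table used (4.14%) the strongest summit, the base with the most fragments, lay within 250 bases before an annotated transcription start, against 11.2% of all 16263 sites on them. The promoters of 10 of these 15 sites held a GATA motif, searched on both strands as AGATAA and TGATAA and as AGATAG and TGATAG (matches may share bases), and those of 5 sites held none. Counted by promoter, where promoters of nearby starts can overlap, 11 of the 18 with the summit of a T354M-held site held one. Such a motif is held by 22.3% of all 34961 promoters, and by 18.4% of the 2226 promoters with the summit of any site. The 4 promoters below with a motif are shown because their gene is a red cell or blood gene, and RALGDS because its site had the fewest anti-GATA2 libraries of the 5 without one. Each is the 250 bases before the start on GRCh38.p14, read 5′ to 3′ on the gene's strand with the motif in capitals, from chr1:205255952-205256201, plus strand (TMCC2), chr15:43221019-43221268, minus strand (EPB42), chr19:13102859-13103108, minus strand (LYL1), chr1:206083345-206083594, plus strand (RHEX) and chr9:133149211-133149460, minus strand (RALGDS).
TMCC2: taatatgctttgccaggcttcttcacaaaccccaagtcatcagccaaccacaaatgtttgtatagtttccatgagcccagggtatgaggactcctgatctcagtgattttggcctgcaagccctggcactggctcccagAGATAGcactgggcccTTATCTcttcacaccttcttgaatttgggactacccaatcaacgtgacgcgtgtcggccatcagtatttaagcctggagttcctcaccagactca
EPB42: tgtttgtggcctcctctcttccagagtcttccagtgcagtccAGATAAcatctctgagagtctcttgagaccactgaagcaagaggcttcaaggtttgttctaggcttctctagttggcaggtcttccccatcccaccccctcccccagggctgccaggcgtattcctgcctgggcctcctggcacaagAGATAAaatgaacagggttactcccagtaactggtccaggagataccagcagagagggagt
LYL1: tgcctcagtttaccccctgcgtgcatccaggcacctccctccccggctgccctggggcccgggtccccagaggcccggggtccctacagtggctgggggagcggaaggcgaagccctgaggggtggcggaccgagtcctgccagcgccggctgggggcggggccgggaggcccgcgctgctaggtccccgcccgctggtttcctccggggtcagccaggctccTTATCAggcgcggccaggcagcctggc
RHEX: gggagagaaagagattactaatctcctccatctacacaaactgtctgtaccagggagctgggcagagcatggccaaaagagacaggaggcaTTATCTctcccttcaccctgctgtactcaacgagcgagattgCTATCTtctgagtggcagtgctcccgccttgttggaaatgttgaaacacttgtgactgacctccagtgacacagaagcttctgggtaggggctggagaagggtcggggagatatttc
RALGDS: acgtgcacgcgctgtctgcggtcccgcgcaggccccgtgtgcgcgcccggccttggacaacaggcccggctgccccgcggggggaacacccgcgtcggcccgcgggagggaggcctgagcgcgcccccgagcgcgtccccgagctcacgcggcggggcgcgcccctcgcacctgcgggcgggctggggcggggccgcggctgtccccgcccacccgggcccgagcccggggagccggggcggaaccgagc

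At TMCC2 the summit lay inside a motif, 2 bp from its centre. The distance to the centre of the nearest motif was 26 bp at EPB42, which encodes protein 4.2 of the red cell membrane. It was 42 bp at LYL1, a basic helix-loop-helix factor of early blood cells, and 32 bp at RHEX, a regulator of erythroid expansion. The sites with a motif in the promoter had a peak in 3 or 4 of 4 empty-vector anti-GATA2 libraries, and 9 of the 10 had one in all 16 anti-GATA2 libraries. The 5 without one, at H2BC5, H2BC13 with H2AC13, RALGDS, VAPA and SF3A2, had a peak in 0 to 2 of 4 empty-vector libraries, and 0 of the 5 had one in all 16. No test was made on these small sets, and a missing match says only that these letters are not in that window. The histone genes have near-identical copies, between which reads can be split.

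In the lists at their full length, nearly all T354M-held sites were also sites of HA-GATA2 and of wild-type cells. With anti-HA, HA-GATA2 had a peak at 98.2% ± 2.82 of them (SD, n = 4 libraries), while the empty vector has none by the rule. With the tagged lists cut to the 426 strongest peaks, the length of the shortest, 289 sites met the rule, HA-GATA2 had a peak at 73.8% of them on average, and 208 of the 289 (72.0%) had one in at least 3 of 4 HA-GATA2 libraries. With anti-GATA2 the share was 98.7% ± 1.35 in T354M, 98.5% ± 0.206 in HA-GATA2, 87.2% ± 4.5 in GATA2-low empty-vector and 98.4% ± 0.378 in wild-type cells. Over all 17277 sites the same shares were 24.3% ± 10.1 with anti-HA in HA-GATA2, and 27.5% ± 8.7, 59.5% ± 13.1, 13.9% ± 4.79 and 43.7% ± 7.15 with anti-GATA2 in T354M, HA-GATA2, empty-vector and wild-type cells. The empty-vector libraries, at 83.6%, 83.6%, 88.7% and 92.9% in replicates 1 to 4, all lay below the 98.0% to 98.7% of the wild-type libraries. They also had the lower background. Among the empty-vector libraries themselves the order was the reverse, with backgrounds of 0.213, 0.168, 0.162 and 0.153 in replicates 1 to 4. The part of depth in these shares was not tested. With the anti-GATA2 lists cut to the 1823 strongest peaks as well, the shares were 93.5% in T354M, 90.2% in HA-GATA2, 87.4% in empty-vector and 91.9% in wild-type cells.

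**Figure D1:**
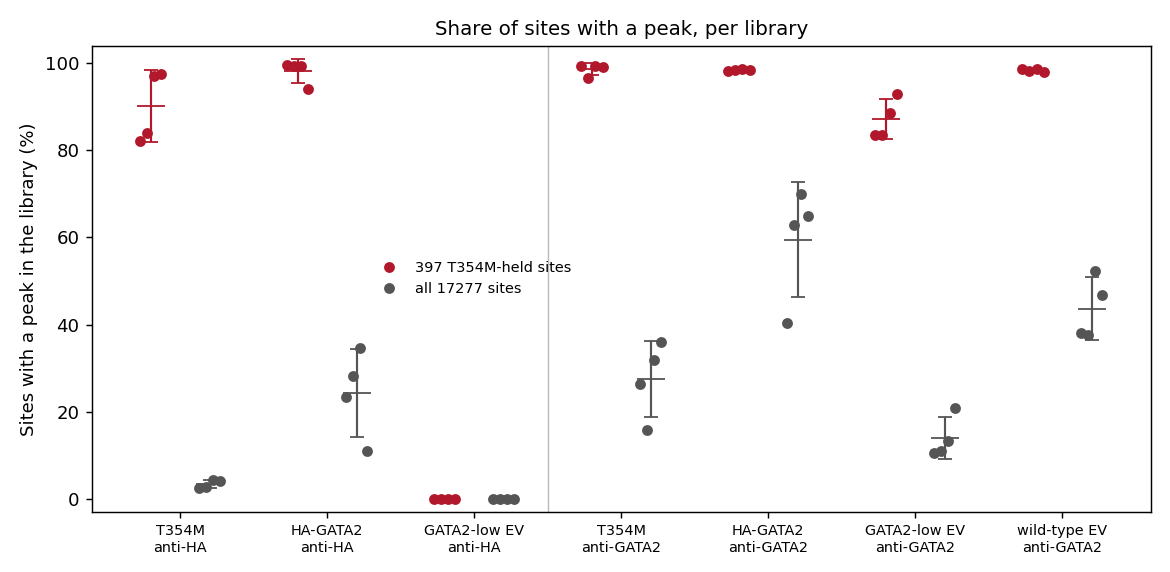
Percent of sites with a peak in each library (points), for the 397 T354M-held sites (red) and all 17277 sites (grey), in the 7 groups; bars are the mean and SD over 4 libraries, and EV is the empty vector. The T354M and empty-vector anti-HA points are fixed by the rule, and in each anti-GATA2 group the red points lie above the grey ones.

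A total of 309 of the 397 sites (77.8%) had a peak in all 16 anti-GATA2 libraries, against 1200 of all 17277 sites (6.95%) and 521 of the 2425 sites (21.5%) with an anti-HA peak in at least 3 of 4 HA-GATA2 but in no T354M or empty-vector libraries. At least 12 of the 16 libraries had a peak at 386 T354M-held sites, and at most 9 at 9 of them. By anti-HA, all 4 HA-GATA2 libraries had a peak at 373 sites, 3 of them at 21, 2 at 2 and none at 1. Among all 6916 sites with an anti-HA peak in HA-GATA2 or empty-vector cells, 25.3% had one in all 4 HA-GATA2 and no empty-vector library.

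**Figure D2:**
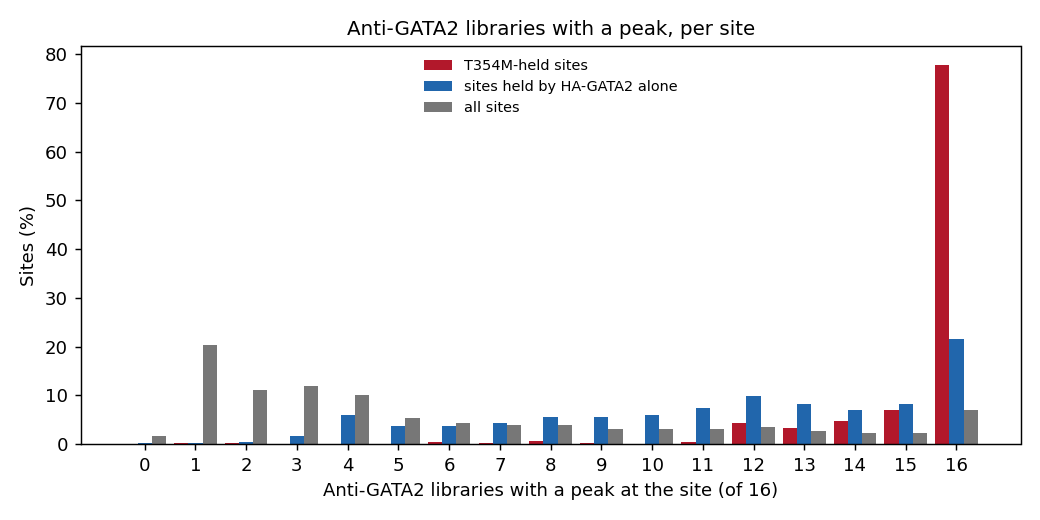
Percent of sites (bars) by the number of anti-GATA2 libraries with a peak, for T354M-held sites (red), the 2425 sites held by HA-GATA2 alone (blue) and all sites (grey). The red bar at 16 libraries stands at 77.8%, against 21.5% for the blue and 6.95% for the grey bar.

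Where they had a peak, the T354M-held sites were among the strongest of each anti-GATA2 list. A peak's percentile is its rank by -log10 q within its own list, with the strongest at 100. The median percentile over the T354M-held sites with a peak in the library was 92.9 ± 2.97 in T354M, 96.0 ± 0.963 in HA-GATA2, 85.7 ± 3.31 in empty-vector and 95.8 ± 0.586 in wild-type anti-GATA2 lists (SD, n = 4), where all sites stand near 50 by construction. In wild-type lists it was 71.5 ± 3.36 at the sites of HA-GATA2 alone and 87.7 ± 2.11 at the 620 sites with a peak in all 16 anti-GATA2 libraries and none for T354M with anti-HA. The median fold enrichment over local background, the authors' value for each peak, was 32.6 ± 5.44 at T354M-held sites and 11.2 ± 0.693 at other sites in wild-type libraries.

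Of the 4806 sites with a peak in 4 of 4 wild-type libraries, ranked by that percentile, 70.1% of the first of 20 bins were T354M-held, 34.9% of the second, 11.6% of the third and 0.417% of the last. In the same bins an anti-HA peak in at least 3 of 4 HA-GATA2 libraries was found at 100%, 99.2%, 94.2% and 12.9% of the sites. Strength in wild type did not fix membership. Of the 397 strongest of these wild-type sites 228 were T354M-held, 91 had 1 or 2 T354M anti-HA peaks and 78 had none, and 76 of those 78 were held by HA-GATA2 in at least 3 of 4 libraries. The strongest without a T354M peak lay nearest to MBNL2, at chr13:97326896-97328427, with a mean wild-type percentile of 99.3.

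**Figure D3:**
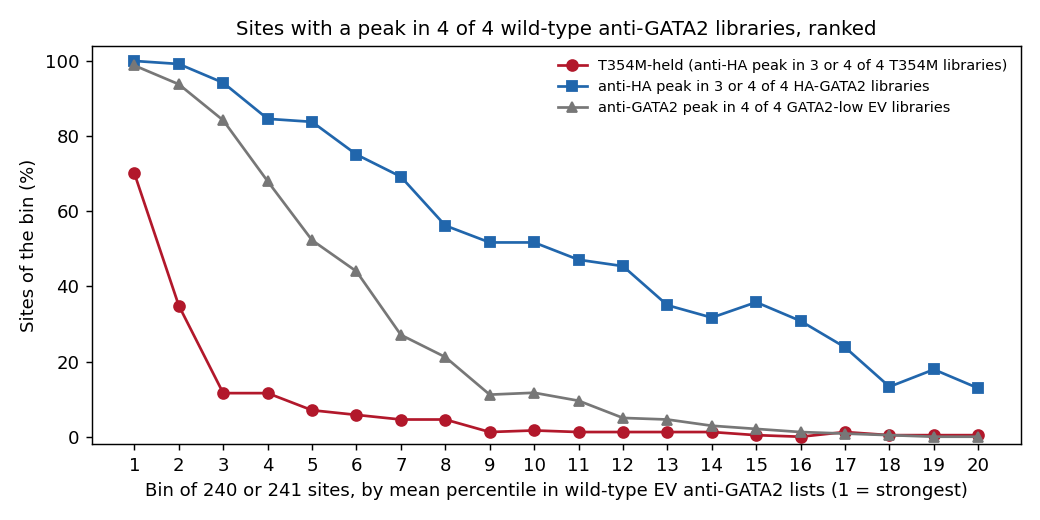
Percent of sites in 20 bins of the 4806 wild-type anti-GATA2 sites (strongest at left) that were T354M-held (red), that had an anti-HA peak in at least 3 of 4 HA-GATA2 libraries (blue), or an anti-GATA2 peak in 4 of 4 GATA2-low empty-vector (EV) libraries (grey). The red line stands at 70.1% in the first bin and 34.9% in the second, and the blue line at 100% and 99.2%.

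At sites that both tagged proteins held in 4 of 4 libraries, T354M had fewer fragments at the summit. The recovered fragment numbers were complete at 227 of these 230 sites, with a median of 32.5 fragments for T354M and 82.0 for HA-GATA2. The median ratio of T354M to HA-GATA2 was 0.406, with quartiles of 0.351 and 0.473 and a range of 0.205 to 1.05. The ratio was under 1 at 226 sites and above 1 at 1 site, in the NEAT1 region. Taken against each HA-GATA2 library in turn the median was 0.404, 0.359, 0.339 and 0.585, and without replicate 4, the shortest HA-GATA2 list, it was 0.366. These values are a description, since anti-HA peaks of both tagged proteins chose the sites, and the amount of each protein was not measured. Needing an HA-GATA2 peak in 4 of 4 libraries can leave out sites with few HA-GATA2 fragments. The counts of ratios under and above 1 therefore hold for these sites alone. The summits lay close together, at a median distance of 17 bp between T354M and HA-GATA2 anti-HA over 396 sites, with 78.3% within 50 bp.

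**Figure D4:**
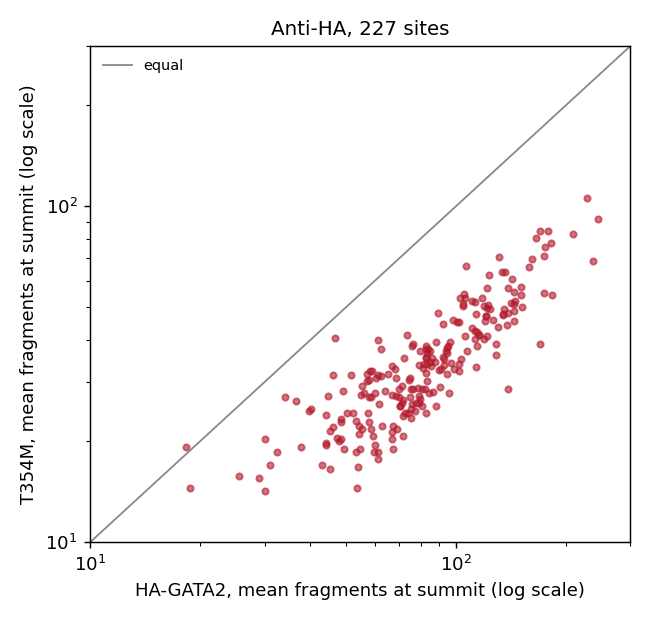
Mean fragments at the summit over 4 libraries for T354M (vertical, log scale) and HA-GATA2 (horizontal, log scale) with anti-HA, 1 point for each of 227 sites, with the line of equal values. All points but 1 lie below the line, at a median ratio of 0.406.

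Anti-GATA2 peaks at T354M-held sites seldom split the groups, and for T354M over empty vector the share was near that of all sites. A site was counted as split where it had a peak in 4 of 4 libraries of one group and 0 of 4 of the other, which gives p = 0.0286 in a two-sided Fisher's exact test, the smallest this design allows. T354M over empty vector split at 17 of 397 T354M-held sites (4.28%), against 5.87% of all 7613 sites tested, and HA-GATA2 over empty vector at 17 of 395 (4.3%), against 23.8%. Both share the empty-vector libraries. The empty vector was lower than wild type at 14 of 393 (3.56%), against 13.7%. None was split between T354M and HA-GATA2, where T354M was lower at 10.2% of all 14531 sites tested. T354M was higher than wild type at 2 of 397 sites (background 0.446%), HA-GATA2 was higher than wild type at 2 of 395 (7.94%) and lower at 1, SF3A2 (1.2%). In the other directions no T354M-held site was split. The backgrounds there were 0.0394% for T354M below and 0.0% for HA-GATA2 below empty vector, 0.0179% for empty vector above wild type, 0.0344% for T354M above HA-GATA2 and 4.03% for T354M below wild type. After Benjamini-Hochberg adjustment over all sites tested no site passed in any of the 6 comparisons (lowest adjusted p 0.483, 0.12, 0.209, 0.279, 0.639 and 0.312 for T354M over empty vector, HA-GATA2 over empty vector, empty vector over wild type, T354M over HA-GATA2, T354M over wild type and HA-GATA2 over wild type). With lists of equal length the counts moved, over 276 to 283 T354M-held sites. Against the empty vector, T354M was above at 13 (4.61%, against 4.94% of all sites) and below at 1 (0.355%, against 1.78%). HA-GATA2 was above the empty vector at 9 (3.21%, against 7.59%) and below at 3 (1.07%, against 3.73%). T354M was then above HA-GATA2 at 4 (1.44%, against 3.15% of all sites), above wild type at 7 (2.47%, against 4.16%) and below it at 2 (0.707%, against 2.69%). HA-GATA2 was above wild type at 4 (1.42%, against 7.3%) and below it at 4 (1.42%, against 5.93%), and the empty vector was below wild type at 2 (0.725%, against 2.15%).

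Presence in the empty-vector libraries ordered the sites. The 312 sites with a peak in 4 of 4 had a median wild-type percentile of 96.9, the 28 with 3 had 85.3, the 18 with 2 had 79.0, the 17 with 1 had 64.1 and the 22 with 0 had 38.7. Among the 22, 13 had a peak in 4 of 4 libraries of the other 3 anti-GATA2 groups, which is 3.27% of the 397, against 247 of all 17277 sites (1.43%).

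The 2 sites higher than wild type had an anti-GATA2 peak in 4 of 4 T354M and 4 of 4 HA-GATA2 libraries and in no empty-vector or wild-type library. At chr13:21289779-21290879, in no protein-coding gene and nearest to ZDHHC20, a palmitoyltransferase gene, the fold enrichment was 14.0, 12.3, 21.3 and 13.9 with anti-HA in T354M and 34.2, 38.0, 45.6 and 22.6 in HA-GATA2. With anti-GATA2 it was 11.8, 11, 11.7 and 13.2 in T354M and 7.42, 18.3, 21.8 and 18.5 in HA-GATA2, and no peak was called in any of the 8 GATA2-low or wild-type empty-vector libraries. The other, chr12:105986688-105988014 near NUAK1, a kinase gene, had anti-HA folds of 9.98, 12 and 10.6 in T354M replicates 2, 3 and 4, and 21.9, 20.6, 22.6 and 16.1 in HA-GATA2.

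T354M-held sites lay at GATA2 itself in 2 places. Inside the gene body, at chr3:128485735-128487032, T354M anti-HA folds were 4.62, 5.3, 5.61 and 5.3, and HA-GATA2 had 3.57, 3.76 and 4.84 with no peak in replicate 4. With anti-GATA2 the folds there were 34.0, 30.4, 43.8 and 40.3 in T354M and 19.3, 20.6, 23 and 11.2 in HA-GATA2, none in empty vector and 5.52 in 1 wild-type library. The vectors carry GATA2 coding sequence, so fragments of the vector and of the gene cannot be told apart here. The second site, chr3:128495069-128496370, lies 2439 bp before a GATA2 start and had a peak in 16 of 16 anti-GATA2 libraries, with anti-HA folds of 5.69, 7.03, 5.71 and 6.86 in T354M and 18.0, 16.7, 27.3 and 13 in HA-GATA2.

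ZFPM1, which encodes the GATA cofactor FOG1, had 5 T354M-held sites, more than any other gene, followed by ELMO1 and MTSS1 with 3 each. These counts have no number of all sites at each gene beside them. At the ZFPM1 site chr16:88454468-88457176 the T354M anti-HA folds were 14.2, 12.8, 10 and 18.1, and the HA-GATA2 ones 14.5, 29.2, 20.1 and 14.2, so the ranges overlapped. They also overlapped at chr16:88452692-88453270 and chr16:88491194-88492443, but not at chr16:88463964-88465435 or chr16:88497258-88498759. At chr16:88454468-88457176 anti-GATA2 gave 34.6, 22.4, 40.0 and 36.9 in T354M and 27.2, 43.4, 39.3 and 39.7 in HA-GATA2. It gave 18.5, 9.65, 17.5 and 24.0 in empty-vector and 52.6, 44.6, 59.1 and 56.0 in wild-type libraries, with every wild-type value above the others. The gene ZFPM2, for the related cofactor FOG2, held the site with the highest mean percentile for T354M (99.9), with anti-HA folds of 16.7, 14.2, 19.6 and 19.5 in T354M and 38.6, 40.0, 48.0 and 25.4 in HA-GATA2.

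HDC, whose enzyme makes histamine in mast cells and basophils, had T354M anti-HA folds of 13.5, 21.1, 18.8 and 13.5 and HA-GATA2 folds of 28.4, 37.1, 40.4 and 17.3 at chr15:50260142-50261853. Only the ZFPM2 site and one near CIBAR1 had a higher mean percentile for T354M. At EPB42 the T354M folds were 7.59, 4.2, 6.73 and 10.4 and the HA-GATA2 folds 23.7, 24.5, 34.7 and 16.2, with no overlap. At LYL1 they were 5.21, 5.49, 5.17 and 4.09 for T354M and 9.85, 10.6, 9.19 and 4.65 for HA-GATA2, where replicate 4 of HA-GATA2 fell among the T354M values. Others of the 20 strongest sites lay in ZNF521, a zinc finger gene, and TNFAIP8, and near CA1, an erythroid carbonic anhydrase.

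Of 8 gene lists, T354M-held sites lay in the body of, or within 10 kb of, 3 of 16 core GATA2 targets and partners (GATA2, LYL1, ZFPM1), and 3 of 31 other haematopoietic transcription factors (CEBPE, FOXO3, NFIX). They lay at 3 of 24 globin and heme genes (ABCB10, CPOX, FECH), 5 of 35 red cell membrane, blood group and iron genes (CA1, EPB42, ERMAP, RHCE, TMCC2), and 2 of 27 mast cell, basophil and eosinophil genes (HDC, MITF). They lay at 1 of 26 neutrophil and monocyte genes (LTF), and at none of 30 cytokine receptor and signalling or 26 megakaryocyte and platelet genes. Over all 19974 protein-coding genes the share was 1.57%. Many of these lists hold more sites of any kind: 81.2% of the core, 87.1% of the transcription factor, 83.3% of the globin and heme and 97.1% of the red cell membrane genes had a site, against 42.1% of all genes. That share was also 83.3% for the cytokine receptor and signalling genes, which had no T354M-held site. It was 63.0% for the mast cell, basophil and eosinophil, 38.5% for the megakaryocyte and platelet and 26.9% for the neutrophil and monocyte genes. At FECH, the enzyme of the last step of heme synthesis, T354M anti-HA folds were 5.29, 6.02, 7.24 and 7.61 and HA-GATA2 folds 14.6, 16.3, 19.3 and 8.56, with no overlap.

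By position, 7.56% of T354M-held sites had a protein-coding gene end within 1000 bp, 49.4% lay inside a gene and 43.1% outside, against 19.6%, 46.1% and 34.3% of all sites. Sites of HA-GATA2 alone had 7.55% at gene ends. The merged T354M-held sites were wide, with a median of 1120 bp against 402 bp for all sites, and 23 of the 397 lay within 10 kb of another.

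A few sites lacked most anti-GATA2 peaks. In CACNA1H, a calcium channel gene, chr16:1192045-1193582 had T354M anti-HA folds of 10.5, 9.56, 5.62 and 10.3, HA-GATA2 folds of 10.3 and 7.78 in 2 libraries, and 1 anti-GATA2 peak of 8.18, in T354M. Its neighbour chr16:1194080-1195358 had T354M folds of 6.25, 10.2 and 5.28 and is the T354M-held site without any HA-GATA2 anti-HA peak. In the region of the long RNA NEAT1, chr11:65426127-65427643 had 7.96, 8.27, 11.7 and 7.51 in T354M and 8.81, 8.08, 7.79 and 6.96 in HA-GATA2 with anti-HA, and anti-GATA2 peaks in 2 T354M, 1 HA-GATA2, 0 empty-vector and 4 wild-type libraries. Besides the 397, 5 sites met the T354M side but had an empty-vector anti-HA peak, near GRAP, H2BC11, H2BC14, H2AC20 and H2AC12, of which H2AC20 had one in 4 of 4 empty-vector libraries.

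The sites just inside and outside the rule are described by the values that chose them. The median percentile of their T354M peaks, averaged over libraries, was 72.4 for sites in 4 of 4, 44.5 for 3 of 4 and 35.3 for 2 of 4 libraries. Those in 4 of 4 T354M libraries (241) had a median fold of 9.39, those in 3 of 4 (156) 8.52 and the 232 in 2 of 4, just outside, 8.24. A peak in all 16 anti-GATA2 libraries was found at 84.6%, 67.3% and 56.9% of them. Of the 156 sites, 71 lacked a peak in T354M replicate 1 and 63 in replicate 2, the shorter lists, against 12 in replicate 3 and 10 in replicate 4.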

How the data were processed

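Anti-HA and anti-GATA2 CUT&Tag peak lists of 28 libraries were used, and 8 IgG libraries are not used here; 2 of these are titled IgG but have an anti-HA label. MACS2 2.2.7.1, Bowtie2 2.2.5, cutadapt 3.3, FastQC, deepTools 3.5.3 and build hg38 are named per the submitters' processing notes. How they were set is not given in the sources used here. The authors deposited peaks per library. The deposited fold enrichment is a linear ratio to local background, the deposited p and q are -log10 values, at least 6.00 for q, and the deposited score was not used.

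Sites, percentiles and counts were computed in Python 3.11.15 with pandas 2.3.3 and scipy 1.17.1, from 120509 of 120964 peaks. Whole fragments at summits were recovered from fold and -log10 p, within 0.03% for at least 99.0% of peaks, but for only 1.62% to 8.17% of the peaks tried in the T354M and HA-GATA2 anti-GATA2 lists, which were left out of that step. Splits were tested with Fisher's exact test. Merging and splits were tested on simulated data. Genes and promoters came from RefSeq tables of GRCh38.p14, without chromosome 8 promoters; a motif search around summits needs a genome and was not run. Coordinates are 1-based.

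Named sites were the 20 with the highest mean T354M percentile, those at listed genes, up to 10 each with the fewest anti-GATA2 libraries, no HA-GATA2 peak or a split, those with an empty-vector peak, and genes with most sites; not all are printed, and some items the rule or a list covers are left out and not reported here. The promoters printed, MBNL2 and the sites given in full were picked after their values were seen. The sites and lists were chosen with earlier results of these data known. Alternatives changed the -log10 q limit, merging, list length, libraries needed and libraries left out.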

Additional observations from a re-analysis of the deposited data

Results flagged for a closer look

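Among 340 sets of 4 libraries screened for a value far from the other 3, 9 stood apart, and chance gives about 1 in 20. HA-GATA2 anti-HA replicate 4 had a peak at the fewest T354M-held sites of its group (94.0%), and so had T354M anti-GATA2 replicate 2 (96.7%). In HA-GATA2 anti-GATA2 replicate 1, the shortest list of its group, T354M-held sites made up the largest share of the sites (5.6%). Single folds stood above their group at SMCO1 (21.7, T354M anti-HA replicate 4), at MARCHF3 (19.1, T354M anti-GATA2 replicate 4), at ZFPM1 (26.0, T354M anti-HA replicate 3) and near PARP16 (18.1, wild-type replicate 1). They stood below it at a further ZFPM1 site (16.2, wild-type replicate 3) and at RHCE (15.5, HA-GATA2 anti-GATA2 replicate 1).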

How the results depend on the processing

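Results are listed in one order: number of sites; splits of T354M against empty vector, HA-GATA2 against empty vector, empty vector against wild type, T354M against HA-GATA2, T354M against wild type and HA-GATA2 against wild type; sites in all 16 anti-GATA2 libraries; sites held by HA-GATA2. At -log10 q of at least 15 there were 192 sites, with 4 and 4 splits against empty vector (T354M, HA-GATA2), 5 of empty vector against wild type and 4 of T354M against wild type, 158 in all 16 and 192 held by HA-GATA2. The share per library was 97.5% in HA-GATA2 and 98% in wild-type anti-GATA2, and 16, 83 and 93 sites lay at gene ends, inside and outside genes. With peaks trimmed to 100 bp either side of the summit, T354M against wild type split at 1 site, and the shares were 96.9% (HA-GATA2) and 96.6% (wild type). With lists of equal length, 1823 peaks for anti-GATA2 and 426 for anti-HA, 289 sites were left, 228 of them in all 16, the splits were 14, 12, 2, 4, 9 and 8 in both directions together, HA-GATA2 held 208, and the shares were 73.8% (HA-GATA2 anti-HA), 93.5% (T354M), 90.2% (HA-GATA2) and 91.9% (wild type). Requiring 4 of 4 T354M libraries left 241 sites, with splits of 8, 8, 6, 1 and 1 (all but the fourth), 204 in all 16, 240 held by HA-GATA2, 99% for HA-GATA2 anti-GATA2, and 16, 115 and 110 by place. Requiring 2 of 4 gave 629 sites, splits of 32, 33, 33, 1, 7 and 6, 613 held by HA-GATA2, shares of 96.7% (T354M), 96.6% (HA-GATA2), 81.4% (empty vector) and 97% (wild type), and 60, 305 and 264 by place. Gene ends within 5000 bp numbered 90. Shares of splits over all sites were computed only for the main setting and for lists of equal length, and are given above. The other counts of splits, here and below, have no such share beside them and are not results about the T354M-held sites. A minimum peak width of 100 bp could change nothing, since the narrowest peak was 158 bp. A larger overlap for merging was not tried.

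The correlations between libraries of the same replicate number were -0.0681 to 0.127, against a threshold of 0.1. Only T354M against empty vector passed it, in replicates 2 (0.127) and 4 (0.118). Elsewhere no correlation passed it, which cannot show whether libraries of the same number were prepared together. With the replicate block, an exact sign test over 4 pairs cannot go below 0.125, so the count of splits was 0 in each comparison. Adjusted over all sites it was also 0. Adjusted over sites with a peak in 4 of the 8 libraries, it was 0 for T354M against empty vector and against wild type, and the other comparisons kept their counts.

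Leaving out each library in turn, with 2 of the 3 remaining T354M anti-HA libraries needed where one of those was left out, gave 397 to 574 sites, splits of 17 to 32, 17 to 33, 14 to 30, 0 to 1, 2 to 6 and 3 to 6, 309 to 409 in all 16 and 394 to 560 held by HA-GATA2. The shares were 96.3% to 99.6% (HA-GATA2 anti-HA), 96.9% to 99.4% (T354M), 96.8% to 98.6% (HA-GATA2), 82.4% to 88.4% (empty vector) and 97% to 98.6% (wild type), and by place 30 to 52, 196 to 282 and 171 to 240. In an alternative added after seeing the data, all 3 remaining T354M anti-HA libraries were needed. It gave 251 to 311 sites, splits of 9 to 12, 9 to 12, 7 to 9, 0, 1 to 2 and 1 to 2, 211 to 251 in all 16 and 250 to 310 held by HA-GATA2. The shares were 98.5% to 98.7%, 98.8% to 99%, 98.5% to 99%, 88.7% to 90.4% and 98.4% to 98.8%, and by place 17 to 22, 119 to 154 and 111 to 138. Within these ranges, T354M and HA-GATA2 each split from empty vector at 11 sites without T354M replicate 2, there were 253 sites with 252 held by HA-GATA2 without replicate 3, and 19 and 121 sites lay at gene ends and inside genes without replicate 4. With 2 of 3 needed, the splits moved most without T354M anti-HA replicate 1 or 2 or empty-vector anti-GATA2 replicate 4, and counts of 2 and 0 also moved without T354M anti-HA replicate 4 and T354M anti-GATA2 replicate 2. The number of libraries needed sets how many sites each of these settings admits, so leaving out a T354M library and the looser or stricter need cannot be told apart. The cause of the other moves was not tested.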
